A study of Rattus norvegicus with 8 samples.

Results

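The heat shock proteins and chaperones described here are 10 rat genes, taken as every non-control feature of the array whose RefSeq identifier is one of 10 accessions. All 10 accessions were on the array, where they are read by 21 of 41012 probes, printed as 39 of 43379 non-control features. In the order of the rule they are *Hspa1a* (NM_031971), *Hspa1b* (NM_212504), *Hspa8* (NM_024351), *Hspa5* (NM_013083), *Hsp90aa1* (NM_175761), *Hsp90ab1* (NM_001004082), *Hspb1* (NM_031970), *Hspd1* (NM_022229), *Hsph1* (NM_001011901) and *Dnaja1* (NM_022934). Of the 21 probes, 20 had a signal well above background on 2 or more of the 8 arrays, in either channel, and were tested. The probe of *Hspa1b* (A_44_P532958) was above background on no array, and its ratio is listed as exactly 1 on all 8.

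The question of the study was which genes respond to lavender oil (LO) given by mouth to rats, and 3 tissues were taken for it (liver, spleen and small intestine). Male rats were 7 weeks old at the start, and the strain is Wistar in the sample labels and Fischer F334 in the study's protocol. The control group received 10% ethanol and the LO group received 5 mg/kg LO in 10% ethanol, into the stomach once a day for 13 days, so that the vehicle was common to both groups. Tissues were taken on day 14 from 6 rats per group, and RNA was pooled within each group. Each array then held a control pool and an LO pool of the same tissue in different dyes. LO carried Cy5 on array 1 and Cy3 on array 2 of each dye-swap pair. There was 1 pair for the small intestine, 1 for the spleen and 2 for the liver (called pool 1 and pool 2), and what distinguishes both liver pools is not stated in the sources used here. The replicates are therefore arrays and pools and not animals, and every error below is that of arrays or pools.

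Heat shock proteins bind unfolded or partly folded proteins and help them to fold, to cross membranes or to be degraded. HSP70 proteins work in cycles of ATP hydrolysis that J-domain proteins start and HSP110 proteins reset, HSP90 proteins finish the folding of client proteins such as kinases and steroid receptors, and small heat shock proteins hold unfolded chains without using ATP. *Hspa1a* and *Hspa1b* are the classical stress-inducible HSP70 genes, while *Hspa8* is made in nearly all cells, *Hspa5* (BiP) serves the endoplasmic reticulum and *Hspd1* (HSP60) the mitochondrial matrix. Heat shock factors switch on many of these genes through repeated GAA units in their promoters, whereas *Hspa5* responds to unfolded protein in the endoplasmic reticulum.

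RefSeq (build GRCr8) gave a promoter for 8 of the 10 genes, and none was given for *Hspa1b* or *Hsp90aa1*. In the 250 bases before the annotated start, both strands were searched for 2 motifs and, beside them, for a TATA box and a CCAAT box. The heat shock element was taken as 3 alternating units, that is GAANNTTC followed after any 2 bases by GAA, and the endoplasmic reticulum stress element as CCAAT and CCACG with any 9 bases between them. The heat shock element was found in *Hspa8*, *Hspd1* and *Hsph1*, 3 of 8 genes, and in 0.663% of all 33469 promoters of this length. The endoplasmic reticulum stress element was found only in *Hspa5* among the 8, and in 0.0657% of all promoters. These 4 stretches are shown because they are the ones that hold 1 of the 2 motifs, the heat shock element or the endoplasmic reticulum stress element. Capitals mark both motifs and the shorter forms of 2 units, GAANNTTC and TTCNNGAA, which lie within the longer one wherever it occurs. The shorter forms were found in 5 and 3 of the 8 genes, and in 7.23% and 7.48% of all promoters. A TATA box (TATAAA) was found in 0 of the 8 genes and in 12.9% of all promoters. A CCAAT box was found in 4 of the 8 and in 34% of all promoters, and is not marked on its own. All sequences run 5′ to 3′ on the strand of the gene.
*Hspa8*, chr8:50080264-50080513, plus strand: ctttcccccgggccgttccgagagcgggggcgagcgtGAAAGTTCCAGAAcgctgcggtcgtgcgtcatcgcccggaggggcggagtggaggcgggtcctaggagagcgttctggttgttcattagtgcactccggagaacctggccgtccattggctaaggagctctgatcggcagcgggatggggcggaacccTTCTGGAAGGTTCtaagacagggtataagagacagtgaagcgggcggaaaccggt
*Hspd1*, chr9:64084038-64084287, minus strand: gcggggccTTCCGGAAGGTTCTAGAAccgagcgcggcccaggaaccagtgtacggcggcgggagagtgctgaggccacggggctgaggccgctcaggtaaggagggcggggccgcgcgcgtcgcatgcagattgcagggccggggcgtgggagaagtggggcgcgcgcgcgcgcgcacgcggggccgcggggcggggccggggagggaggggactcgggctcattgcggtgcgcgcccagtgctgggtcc
*Hsph1*, chr12:10427118-10427367, plus strand: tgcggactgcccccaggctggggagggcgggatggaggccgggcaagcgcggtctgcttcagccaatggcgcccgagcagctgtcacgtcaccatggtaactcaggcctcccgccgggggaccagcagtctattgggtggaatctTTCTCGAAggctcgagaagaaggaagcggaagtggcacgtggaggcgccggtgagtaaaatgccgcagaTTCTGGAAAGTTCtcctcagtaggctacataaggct
*Hspa5*, chr3:38452766-38453015, plus strand: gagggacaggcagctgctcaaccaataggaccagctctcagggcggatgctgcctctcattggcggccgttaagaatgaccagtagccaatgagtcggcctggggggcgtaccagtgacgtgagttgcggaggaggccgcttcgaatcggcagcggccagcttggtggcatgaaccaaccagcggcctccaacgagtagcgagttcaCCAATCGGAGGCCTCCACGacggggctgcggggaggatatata
The *Hspa8* stretch holds the longer element in 2 places, with the nearer one from base -55 to -43 before the start. In *Hspd1* there are 2 overlapping matches, from base -242 to -225. The *Hsph1* element lies from base -36 to -24, and the *Hspa5* element from base -43 to -25. A match is a run of letters and not a measured binding site. The *Hspa1a* stretch held none of these motifs, which says only that the letters do not occur in this window.

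None of the 9 measured members passed the test between LO and control in any tissue. In the limma fit on the averages of each dye-swap pair, 0 of the 20 member probes passed an adjusted p of 0.05 in any of the 3 tissues, and 0% of all probes tested did so. At an unadjusted p under 0.05 there were 0 member probes for the small intestine (3.94% of all probes), 1 for the spleen (4.26%) and 0 for the liver (5.82%). The fit has 1 residual degree of freedom, from both liver pools, and the number of arrays limits its precision. The small intestine and the spleen had 1 pair each and no spread of their own. Their standard errors and intervals assume that they vary like the liver pools. The 95% intervals lay within 1.5-fold of no change in either direction for 18, 17 and 18 of the 20 probes in the same order of tissues. This was counted for the member probes only and does not set them apart from other probes. By the fold rule of the study (Cy5/Cy3 of at least 1.5 with LO in Cy5 and at most 0.75 with LO in Cy3, or the opposite), 0 of the 39 member features passed in any of the 4 pairs. Over all features 0.712% passed for the small intestine, 0.553% for the spleen, 0.811% for liver pool 1 and 1.25% for liver pool 2. The difference of the LO effect between tissues was tested as well, and 0 of 20 member probes passed in any of the 3 comparisons, as did 0% of all probes. At an unadjusted p under 0.05 there were 0 between small intestine and spleen (3.63% of all probes), 0 between small intestine and liver (4.5%) and 1 between spleen and liver (4.75%). This was the *Hspa1a* probe A_44_P1042876, at -0.78 with an adjusted p of 1. Its liver readings were near background and lay on opposite sides of control by dye.

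**Figure D1:**
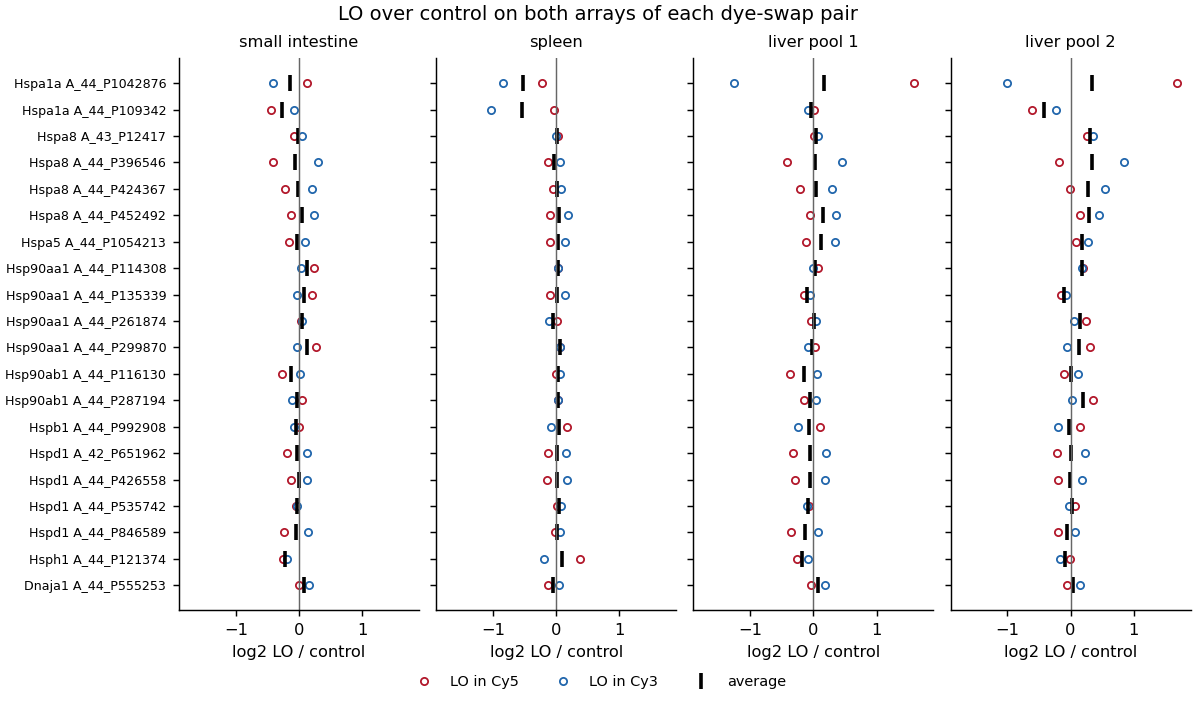
Each row is 1 of the 20 member probes and each panel 1 dye-swap pair, with log2 LO over control on the x axis. Red circles are the array with LO in Cy5, blue circles the array with LO in Cy3, and black bars their average; most averages lie near 0, the *Hspa1a* averages in spleen lie at -0.53 and -0.54, and the liver *Hspa1a* arrays lie on opposite sides.

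The largest average difference among the members was that of *Hspa1a*, the stress-inducible HSP70, in spleen. Its probe A_44_P1042876, which is printed 10 times per array, gave log2 LO over control of -0.22 on array 1 and -0.84 on array 2. On array 1 its mean signal over the 10 copies was 130 in the control pool and 111 in the LO pool, and on array 2 it was 131 and 73.4. LO was thus below control in both dyes, at 0.861-fold and 0.558-fold. The spread used for the test comes from the liver pools, where this probe was near background. The average was -0.53 with a standard error of 0.11, or 0.693-fold, with an unadjusted limma p of 0.0319 and an adjusted p of 1. The other *Hspa1a* probe, A_44_P109342, averaged -0.54 in the spleen, from -0.04 on array 1 and -1.03 on array 2, and on array 2 it was above background in neither channel. Markers of cell types were also read in the spleen, and none passed the adjusted p there. The 3 erythroid markers were all above control in LO, by 0.23 to 0.35 on the log2 scale, of which 0 passed an unadjusted p of 0.05. The 9 hepatocyte markers ran from -0.20 to 0.61, and 4 of them passed it. The enterocyte markers ran from -0.21 to 0.60 and the pancreatic acinar markers from -0.55 to 0.34, with 1 passing in each. The lymphocyte markers ran from -0.04 to 0.12 and the smooth muscle markers from 0.05 to 0.09, with 0 passing in each. The part of these markers in the *Hspa1a* value was not tested.

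In the small intestine the 10-copy probe gave 0.12 on array 1 and -0.40 on array 2, and the average of -0.14 had a standard error of 0.11. The probe A_44_P109342 was below control on both arrays there, at -0.44 and -0.08, with an average of -0.26 ± 0.20 (SE, limma adjusted p = 1), and it was above background in all 4 readings. The *Hspa1a* probes thus differed on the side of array 1, and neither passed the test. In the liver the arrays of the 10-copy probe fell on opposite sides according to the dye that LO carried. With LO in Cy5 the values were 1.59 in pool 1 and 1.69 in pool 2, and with LO in Cy3 they were -1.25 and -1.01. The liver signal was 7.98 to 15.8 in the Cy3 channel and 20.6 to 35.3 in the Cy5 channel, whichever pool was in it. In pool 1 the probe was above background in 9 of 10 copies in Cy5 on each array and in 0 of 10 in Cy3. The liver average of 0.25 (interval -0.05 to 0.55, adjusted p = 0.829) was made of signals near background, and it was 1.64 from the arrays with LO in Cy5 alone and -1.13 from those with LO in Cy3 alone.

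**Figure D2:**
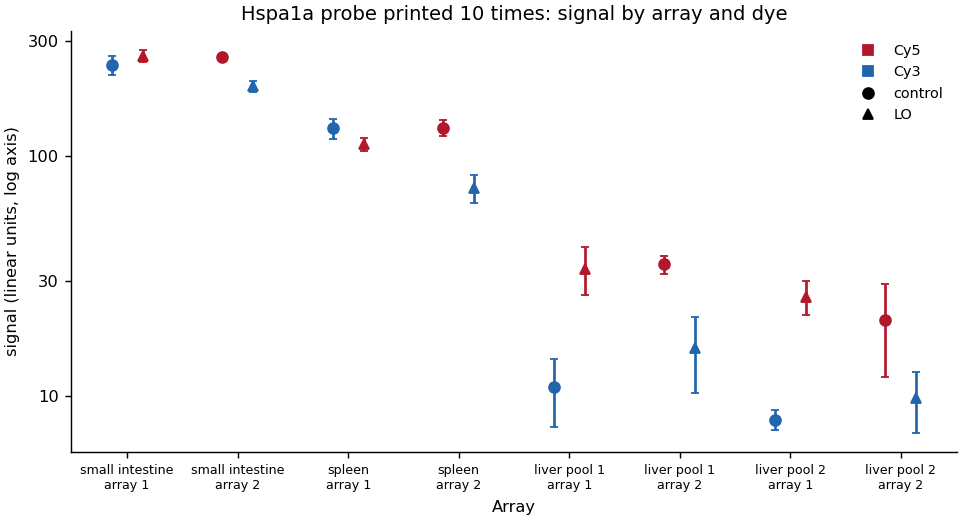
Mean signal of the *Hspa1a* probe A_44_P1042876 over its 10 copies on each of the 8 arrays, on a log axis, with the SD over copies as error bars. Circles are control and triangles LO, red is Cy5 and blue Cy3; the spleen LO signals of 111 and 73.4 lie below control on both arrays, and in the liver the Cy5 signal is the higher on all 4 arrays.

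The constitutive HSP70 gene *Hspa8* averaged above control in the liver, where it passed no test, and close to control elsewhere. Its probe A_43_P12417 gave log2 LO over control of 0.02 and 0.08 on the arrays of pool 1, and of 0.26 and 0.35 on those of pool 2. It was the only member probe above control on all 4 liver arrays, as were 3.18% of all probes. The liver averages of the 4 *Hspa8* probes were 0.17, 0.18, 0.15 and 0.22, with adjusted p from 0.829 to 0.84, and they were 0.02 to 0.15 in pool 1 and 0.27 to 0.33 in pool 2. The 4 probes averaged -0.06 to 0.05 for the small intestine and -0.03 to 0.05 for the spleen. *Hspa5*, the HSP70 of the endoplasmic reticulum, averaged 0.15 in the liver (interval -0.06 to 0.36), -0.03 in the small intestine and 0.02 in spleen.

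*Hsph1*, an HSP110 protein that exchanges the nucleotide of HSP70, was below control on 7 of 8 arrays. So was the *Hspa1a* probe A_44_P109342, which was above background in 0 of 8 liver readings. *Hsph1* gave -0.25 and -0.19 in the small intestine, -0.27 and -0.08 in liver pool 1, and -0.02 and -0.18 in liver pool 2. In the spleen the arrays gave 0.38 and -0.19. The averages were -0.13 ± 0.06 (SE) for the liver, 0.09 ± 0.08 for the spleen and -0.22 ± 0.08 for the small intestine, with limma adjusted p of 0.836, 1 and 1. Along with it only A_44_P135339 of *Hsp90aa1* was below control on all 4 liver arrays, as were 2.95% of all probes.

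The cytosolic HSP90 genes, the stress-responsive *Hsp90aa1* and the constitutive *Hsp90ab1*, had fitted averages between -0.13 and 0.13 on the log2 scale over their 6 probes and 3 tissues. *Hspb1* (HSP27), a small heat shock protein printed 10 times per array, averaged 0.04 in the spleen and -0.04 in both other tissues. The SD of its log2 ratio over the 10 copies was 0.02 to 0.05 on each array. Both arrays of a pair lay further apart than this in every pair, with 0.00 and -0.08 in the small intestine as the closest. *Hspd1* lay between -0.10 and 0.04 over its 4 probes and 3 tissues. *Dnaja1*, a J-domain partner of HSP70, averaged 0.08 in the small intestine, 0.06 in the liver and -0.05 in spleen.

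Dye orientation was visible on all arrays. Log2 LO over control of array 1 and array 2 of a pair correlated at -0.72, -0.72, -0.63 and -0.60 over all probes in liver pool 1, liver pool 2, the small intestine and the spleen. The averages of both liver pools correlated at 0.04. Of the 20 member probes, 3 had all 4 liver arrays on the same side of control (6.14% of all probes tested), 7 had both spleen arrays there (30.8%) and 6 both arrays of the small intestine (26.6%).

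Other genes of the same systems were read from 8 lists of 75 genes, with the brightest probe standing for a gene. Of these 75 genes 52 were found on the array by accession and passed the filter, and 0 of 52 passed the adjusted p in any tissue. The medians over the 52 genes on the log2 scale were 0.02 for the liver, 0.00 for the spleen and 0.01 for the small intestine, beside 0.00 over all probes. At an unadjusted p under 0.05 there were 1, 1 and 0 genes in that order. The spleen gene was *Hspb8*, a small heat shock protein of muscle and of selective autophagy, with 0.12 and 0.75 on its arrays and an average of 0.44 (adjusted p = 1). The liver gene was *Hspb2*, at 0.27 (adjusted p = 0.829), whose probe was above background in 0 of 8 liver readings.

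**Figure D3:**
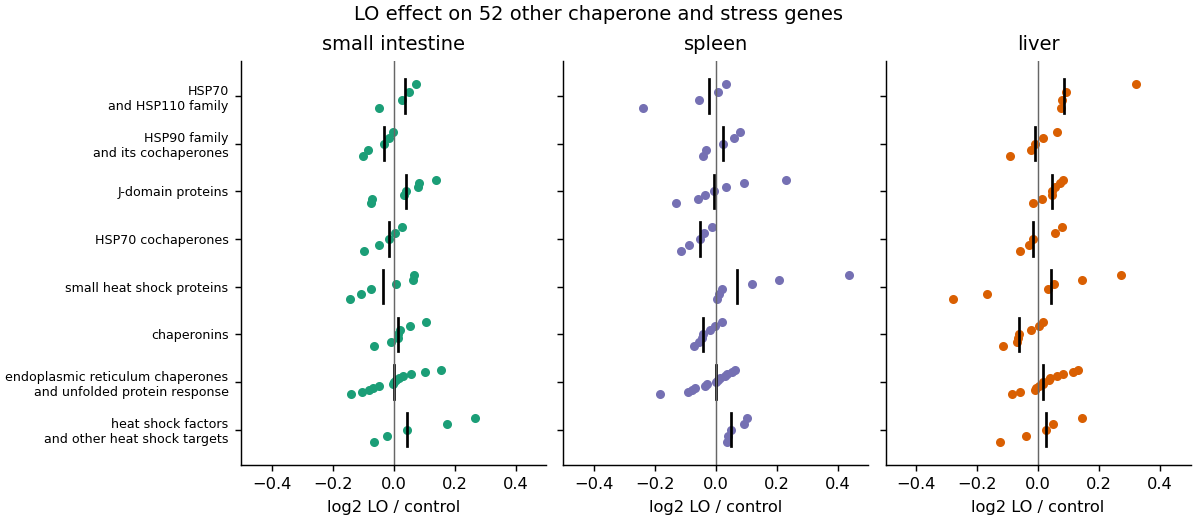
Log2 LO over control of the 52 listed genes by tissue, with 1 point per gene and a black bar at the median of each list. List medians lie between -0.06 and 0.08, and the points furthest above 0 are those of *Hspb8* in spleen (0.44) and *Hspa2* in liver (0.32), whose probe was above background in 1 of 8 liver readings.

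Of the listed genes above control, those with the 3 smallest p-values in the small intestine were *Hsf2*, a heat shock factor, at 0.26, *Hmox1*, the stress-induced haem oxygenase, at 0.18, and *Ddit3* (CHOP), a transcription factor of the unfolded protein response, at 0.15. Below control they were the calcium-binding chaperone *Calr* at -0.14, *Hspb2* at -0.11 (above background in 1 of 4 readings) and the HSP90 cochaperone *Fkbp5* at -0.09. The small intestine arrays lay on opposite sides of control for *Hsf2* (0.64 and -0.11) and *Ddit3* (-0.06 and 0.36). So did those of *Calr* (-0.30 and 0.02) and *Hspb2* (0.21 and -0.42), while those of *Hmox1* and *Fkbp5* lay on the same side. In the spleen, *Hspb2* at 0.21 and *Dnaja4* at 0.23 followed *Hspb8* above control. *Hspb2* was above background in 1 of 4 spleen readings, and its arrays gave 1.01 and -0.60. Below control were *Hspa4* at -0.24, *Creld2* at -0.18 and *Bag5* at -0.11. In the liver, *Hspb8* at 0.14 and *Atf4*, a factor of the integrated stress response that was above control on all 4 arrays, at 0.13 followed *Hspb2*. *Cryab* at -0.17, *Hmox1* at -0.12 and *Hspe1* (HSP10), the partner of *Hspd1*, at -0.12 lay below. In both liver pools *Hspb8* was below control with LO in Cy5 and above it with LO in Cy3, and *Hspb2* was the opposite. *Cryab* was at 0.04 on array 1 of pool 1 and below control on the other liver arrays. *Hmox1* and *Hspe1* were below control on all 4 liver arrays. Of all probes, 2.95% were below control on all 4 and 3.18% above. None of the genes named here passed the adjusted p.

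The levels of the members differed between tissues, as did those of most genes. In the limma fit over the 8 RNA pools, 15 of 20 member probes passed between liver and small intestine (64.8% of all probes), 15 between liver and spleen (70.2%), and 11 between small intestine and spleen (52.2%). Higher in the liver were 8 and 7 of the 15, where 31% and 31.9% of all probes were called higher and 33.8% and 38.3% lower. These shares are near those of the array as a whole. A control pool and an LO pool of a pair were read on the same 2 arrays and are not fully independent, and the fit over the 8 pools takes them as such. With 1 value per array pair (a fit added after the data had been seen, with 1 residual degree of freedom) 2, 3 and 0 of the 20 member probes passed, beside 20.4%, 31.4% and 10.2% of all probes. By the slide barcodes of the scans each tissue was on a slide of its own, so that slide and tissue cannot be told apart. Signals below are log2 values after scaling between arrays and are compared only within a probe. In whole tissue, a change in the cells present and a change in RNA per cell cannot be told apart.

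**Figure D4:**
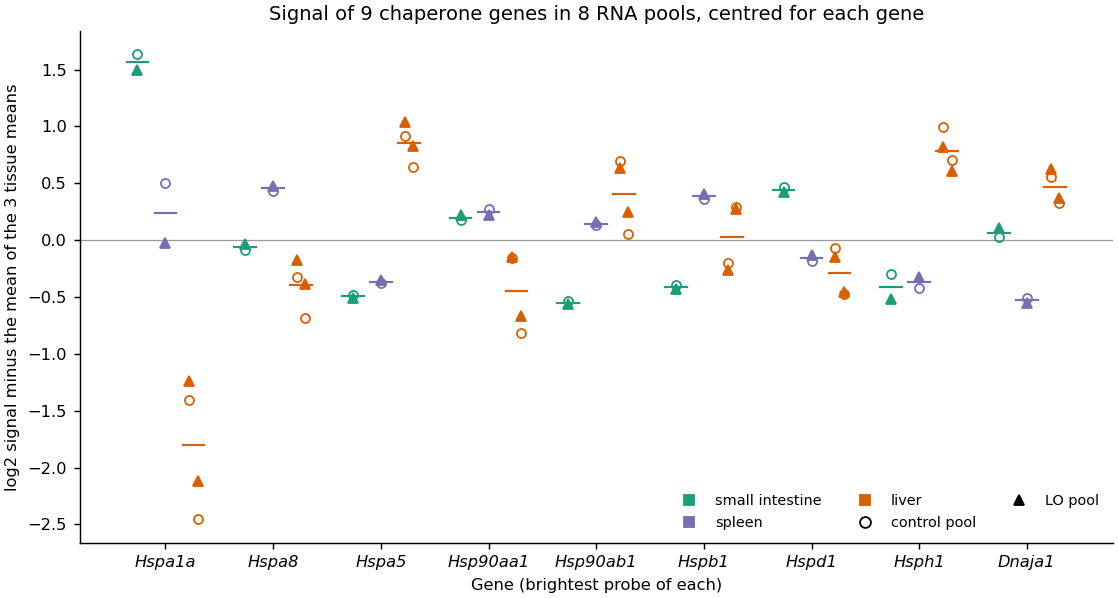
Log2 signal of the brightest probe of 9 genes in the 8 RNA pools, each minus the mean of the 3 tissue means of that gene, so that heights are compared within a gene only. Open circles are control pools, filled triangles LO pools and bars tissue means; *Hspa1a* is lowest in liver and highest in small intestine, and *Hspa5* and *Hsph1* are higher in all 4 liver pools than in the other 4 pools.

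*Hspa1a* was highest in the small intestine and lowest in the liver, and it was 1 of 3 members, with *Hspa8* and *Hspd1*, for which a tissue difference passed in both fits, although for *Hspa1a* this was against a liver signal near background. The 10-copy probe gave 7.70 in the control pool and 7.56 in the LO pool of the small intestine, and 6.57 and 6.05 in those of the spleen. In the liver it gave 4.66 and 4.83 in pool 1 and 3.61 and 3.95 in pool 2. The tissues did not overlap. The means were 7.63 ± 0.10 (SD, n = 2 pools) in the small intestine, 6.31 ± 0.37 (n = 2) in the spleen and 4.27 ± 0.58 (n = 4) in the liver, where the probe was above background in 2 of 8 readings. The liver was 3.37 below the small intestine on the log2 scale, with a limma adjusted p of 0.000641 over pools and 0.0279 over array pairs. Against the spleen it was lower by 4.13-fold, and the limma adjusted p was 0.00459 over pools and 0.0585 over array pairs. With liver readings so close to background the size of these differences is uncertain, and with normexp background correction and loess the liver was 1.36 below the small intestine and 0.63 below the spleen. The small intestine was 1.32 above the spleen, which passed in neither fit (limma adjusted p = 0.0545 and 0.277). The other probe, A_44_P109342, was above background in 4 of 4 readings in the small intestine and in 0 of 8 in the liver, and was at least 1.40-fold higher in the small intestine than in the liver (measured means of 5.50 and 3.33). It was tested because of its signal in the other tissues, and its call between liver and small intestine compares a signal with background.

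*Hspa8* was also lowest in the liver, with its highest signal in the spleen. The probe A_44_P424367 gave 12.78 and 12.79 in the control and LO pools of the spleen and 11.97 and 11.96 in those of the small intestine. The liver pools gave 11.13 to 11.43, below both other tissues. The liver was 1.56 below the spleen, which passed over array pairs as well (limma adjusted p = 0.0432). All 4 *Hspa8* probes were ordered spleen, small intestine, liver, with differences between liver and spleen of -1.75 to -0.85 and between liver and small intestine of -1.22 to -0.33. For the brightest probe, A_44_P452492, both differences with the liver turned above 0 when each channel was scaled to its 75th percentile. They were then 0.03 against the spleen and 0.09 against the small intestine. The other 3 probes kept their direction under the other backgrounds and scalings and with control pools alone.

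*Hspa5*, *Hsph1* and *Dnaja1* were highest in the liver. *Hspa5* gave 15.36 and 15.47 in liver pool 1 and 15.08 and 15.26 in pool 2. The small intestine pools gave 13.96 and 13.93 and the spleen pools 14.06 and 14.08. The liver was 1.35 ± 0.13 (SE) above the small intestine and 1.22 ± 0.13 above the spleen in the fit over pools. With array pairs the limma adjusted p was 0.0778 and 0.0765, so that neither call held, while the small intestine and the spleen were 0.13 apart and did not differ beyond their error; which of these was the higher changed with the scaling. The small intestine pools carried markers of pancreatic acinar cells, secretory cells rich in endoplasmic reticulum. All 7 of these markers were above background there in every reading, with a summed log2 signal of 19.5 to 19.7 against 9.78 to 9.85 in the spleen and 11.9 to 12.3 in the liver, and their part in the *Hspa5* levels was not tested. The averages of these markers were also below control in LO in the small intestine for 7 of 7 genes, by -0.30 to -0.15, where *Hspa5* was at -0.03. Of the 7 markers 0 passed the adjusted limma p there, and 1 passed the unadjusted p (3.94% of all probes). These averages come from 1 dye-swap pair with no spread of its own, and a change of the marker list as a whole was not tested.

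*Hsph1* followed the same order, with 8.31, 8.14, 8.02 and 7.93 in the 4 liver pools and 6.80 to 7.02 in the other 4. The liver was 1.19 above the small intestine and 1.16 above the spleen, with limma adjusted p of 0.000596 and 0.000565 over pools and of 0.0984 and 0.0861 over array pairs. Its signal over the 8 pools correlated with that of *Hspa5* at r = 0.98, as a description over pools that share arrays and tissues. *Dnaja1* was 0.40 higher on the log2 scale in the liver than in the small intestine and 0.999 higher than in the spleen, and it was 0.59 higher in the small intestine than in the spleen. All 3 differences passed over pools and none over array pairs, where the adjusted p ran from 0.115 to 0.472.

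The mitochondrial HSP60 gene *Hspd1* was read by 4 probes that did not give the same order. A_44_P846589 gave 11.52 to 11.79 in the 4 liver pools. The small intestine pools gave 10.60 and 10.56, and the spleen pools 9.62 and 9.64. The liver was 4.01-fold above the spleen by this probe and 3.07-fold above it by A_42_P651962, and both passed over array pairs (limma adjusted p = 0.0265 and 0.0426). A_44_P426558 gave the same order. The brightest probe, A_44_P535742, was instead highest in the small intestine, at 14.36, and gave 13.75 in the spleen and 13.62 in the liver, an order of the last pair that turned under 75th percentile scaling. Direction against the liver thus depends on the probe, while all 4 probes were 0.60 to 0.95 higher in the small intestine than in the spleen, a difference that passed over pools only.

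For the HSP90 genes the order of the tissues differed between probes. For *Hsp90ab1* both probes were lowest in the small intestine, by 0.74 and 0.96 against the liver and by 1.24 and 0.69 against the spleen, of which the last did not pass over pools (limma adjusted p = 0.057). The order of liver and spleen depended on the probe and, for A_44_P116130, on the scaling. For *Hsp90aa1*, A_44_P135339 was 0.77 higher in the liver than in the small intestine and A_44_P299870 was 0.76 lower. Both passed over pools and neither over array pairs, and no order of tissues can be given for the gene. *Hspb1* gave 11.38 and 11.42 in the spleen, 10.75 to 11.31 in the liver, and 10.62 and 10.58 in the small intestine. It was 0.80 higher in the spleen than in the small intestine, with limma adjusted p of 0.0329 over pools and 0.379 over array pairs, and the liver did not differ from either beyond its error.

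**Figure D5:**
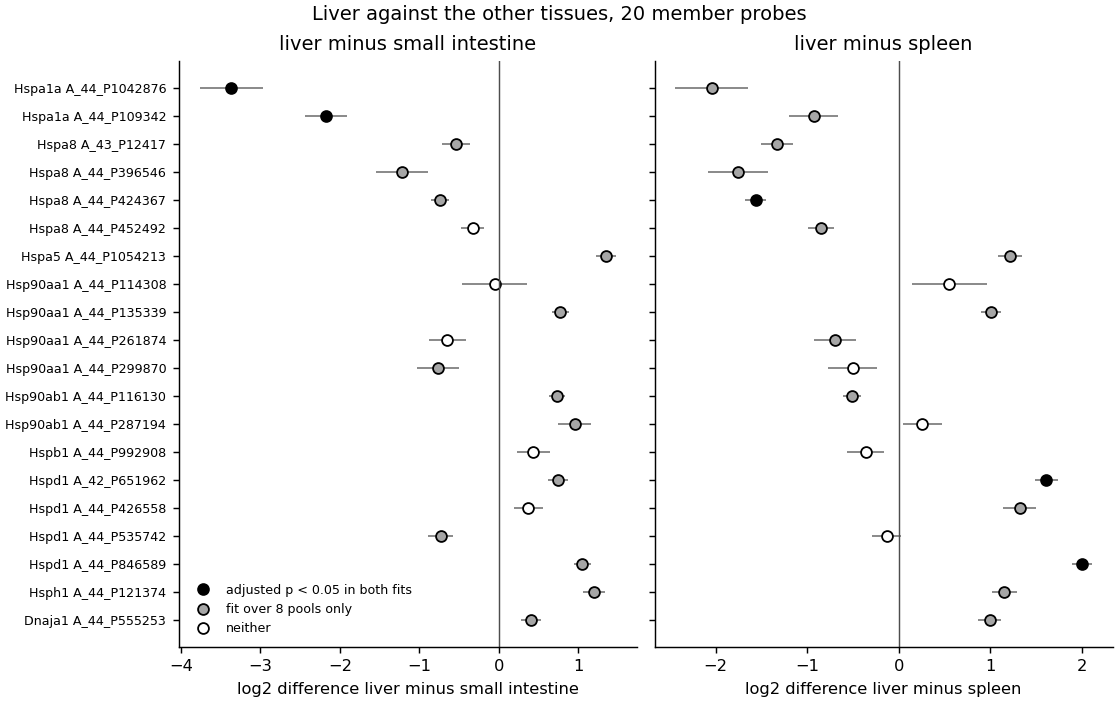
Log2 difference of the liver from the small intestine (left) and from the spleen (right) for the 20 member probes, with the SE of the fit over the 8 pools as bars. Black points passed an adjusted p of 0.05 in both fits, grey points over pools only and open points in neither; 5 points are black, 2 of *Hspa1a* on the left (probes above background in 2 and 0 of 8 liver readings) and 1 of *Hspa8* and 2 of *Hspd1* on the right.

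The liver pools were not alike for several members. Neither were they for the array as a whole, where 37.8% of all probes tested differed by more than 0.5 in either direction. The median difference of pool 2 from pool 1 was -0.27 over the 20 member probes, several of which read the same gene, beside -0.06 over all probes. Pool 2 was lower by more than 0.5 on the log2 scale for 6 of the 20. As large a difference in that direction was seen for 19.7% of all probes. A_44_P114308 of *Hsp90aa1* was 1.11 lower in pool 2, the 10-copy *Hspa1a* probe 0.97 lower and A_44_P396546 of *Hspa8* 0.85 lower. *Hspb1* went the other way and was 0.51 higher, as did the dim *Hspa1a* probe A_44_P109342, by 0.64. Both pools of a treatment were read on different arrays, and arrays and pools cannot be told apart.

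Among the 52 listed genes, 69.2%, 73.1% and 55.8% passed over pools between liver and small intestine, liver and spleen, and small intestine and spleen, beside the shares of all probes given above. Over array pairs 6, 11 and 3 of the 52 genes passed, beside 20.4%, 31.4% and 10.2% of all probes. For the 13 measured genes of the endoplasmic reticulum list the median log2 difference was 0.72 for liver minus small intestine. It was 0.76 for liver minus spleen, beside -0.02 and -0.10 over all probes in that order. Both medians of the list were above 0 under the other backgrounds and scalings and with control pools alone. Of the 13 genes, 9 were higher and 1 lower in the liver than in the small intestine over pools. Against the spleen 10 were higher and 1 lower, and 31% and 31.9% of all probes were called higher. Over array pairs 1 and 2 of the 13 passed, beside 20.4% and 31.4% of all probes. *Pdia4*, a disulfide isomerase, was 2.15 and 2.19 higher (limma adjusted p over array pairs 0.0298 and 0.0218), and *Dnajc3*, a J-domain protein of the same compartment, was 2.15 above the spleen (0.0274). *Hsp90b1* (GRP94), the HSP90 of the endoplasmic reticulum, was 2.22 above the small intestine (0.030).

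Small heat shock proteins and genes of the heat shock factor list ranged widely between tissues. *Hspb8* was 5.26 higher in the liver than in the spleen and 2.57 higher than in the small intestine (limma adjusted p over array pairs 0.00448 and 0.0201). Its probe was above background in 3 of 4 spleen readings, and with normexp and loess the differences were 2.85 and 1.84. *Hspb3* was above background in 0 of 4 readings in the spleen and was at least 12.9-fold higher in the liver. *Cryab*, a small heat shock protein of lens and muscle, was 2.77 lower in the liver than in the spleen. *Hmox1* was highest in the spleen, the organ that breaks down red cells, by 3.99 against the liver and 4.84 against the small intestine (limma adjusted p over array pairs 0.00794 and 0.0161). *Hsf2* was 2.45 higher in the liver than in the spleen and 3.14 higher than in the small intestine, and with normexp and loess 1.98 and 2.38 higher. *Hspa2* was 3.07 lower in the liver than in the small intestine, but its probe was above background in 1 of 8 liver readings and with normexp and loess the difference was -1.19. In the other lists, *Fkbp5* was 2.78 lower in the small intestine than in the spleen, and *Dnaja3* and the chaperonin subunit *Cct4* differed between liver and spleen by 1.55 and -1.61. *Serpinh1* (HSP47), a collagen chaperone, was 2.37 lower in the liver than in the spleen, and the mitochondrial HSP90 gene *Trap1* was higher there (limma adjusted p over array pairs 0.0461). The other listed genes named for their tissue range passed over pools in 1 or more comparisons and over array pairs in none. *Hspa14*, *Cct5* and *Bag5* were highest in the spleen, and *St13* and *Dnajc5* in the liver, though with no scaling between arrays *Dnajc5* was higher in the small intestine.

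Of all other named genes, those whose signal over the 8 pools was most like that of *Hspa1a* were *Stx12*, *Vps37a*, *Morf4l2*, *Pmpcb* and *B3gnt7*, with Pearson's r of 0.994 to 0.996. Those most like *Hspa5* were *Gphn*, *Plcb1*, *Ptpn11*, *Rraga* and *Gkap1*, with r of 0.997 to 0.998. These values describe 8 pools in 3 tissues that share arrays, where any gene with the same order of tissues scores high.

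The hepatocyte, enterocyte and lymphocyte markers had their highest summed signal in the liver, the small intestine and the spleen, in that order. The summed log2 signal of the enterocyte markers was 18.9 to 19.0 in the small intestine and still 17.0 to 17.1 in the liver. All 9 measured hepatocyte markers were above background in every liver reading, all 6 enterocyte markers in every small intestine reading and all 6 lymphocyte markers in every spleen reading. Over all features, 44.3% to 64.7% were above background in both channels of an array, with the lower shares in the liver, and 0 features were saturated.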

How the data were processed

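The 8 two-colour arrays hold pooled RNA of 3 rat tissues. The authors extracted the scanned images with Agilent Feature Extraction 11.0.1.1 (named in their processing notes), which subtracts the background and normalizes the dyes by LOWESS within an array. The authors deposited the log10 ratio of Cy5 over Cy3 per feature, which is exactly 0 for features such as that of *Hspa1b*. The intensity values deposited per channel are linear, background-subtracted and dye-normalized, where a positive surrogate stands in for the dimmest signals, and the median intensity values before correction served the normexp alternative. The p-value deposited by the authors comes from the software's error model for a single array.

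The members and gene lists were chosen with earlier results of these data known. Log10 ratios were turned to log2 and signed as LO over control. Non-uniform and outlier spots were left out, copies of a probe were averaged, and probes well above background in a channel on 2 or more arrays were tested (30616 of 41012). A probe with copies counted as above background where at least 0.5 of its copies were. limma 3.58.1 (R 4.3.3) fitted the averages of the 4 dye-swap pairs with 1 coefficient per tissue. For levels, arrays were scaled by quantile normalization of their mean log2 signal, and limma fitted the 8 pools with tissue and treatment. Benjamini-Hochberg adjusted p-values had a threshold of 0.05. Scripts were tested on simulated data.

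Symbols came from RefSeq through unversioned accessions, for 9 of the 10 members and 10768 probes with 1 symbol; *Hspa1b* keeps the name given with its accession. Coordinates are those of the RefSeq promoter table (GRCr8), while the array was designed on another build. Of list genes, those with the 3 smallest p-values per tissue and direction and those 2 per list with the widest range of tissue means are named, together with genes that passed over array pairs, which were chosen after their values were seen. For likeness the rule named *Hspa1b*, or *Hspa1a* where it could not be used, as was the case. The array number within a pair marks the dye orientation in the labels, and deviations of array 1 from its pair mean correlated at 0.554 to 0.805 between pairs. Alternatives were other backgrounds, filters, scalings, array-level fits with and without dye as a replicate block, the series value table, and each array or pool left out. The number of arrays limits the precision.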

Additional observations from a re-analysis of the deposited data

Results flagged for a closer look

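*Hspa8* probe A_44_P424367 had 1 liver pool apart from the other 3. The log2 signal was 11.43 in the LO pool of liver pool 2 and 11.13 to 11.17 in the other liver pools, a gap of 0.873 of the whole range against a critical value of 0.829. Of 40 such groups of 4 liver values, from the signals and the LO ratios of the 20 member probes, this was 1 flag, and chance flags about 1 in 20 groups.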

How the results depend on the processing

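For the LO effect the brightest probe of 9 genes in 3 tissues stayed uncalled under the alternatives that keep all arrays. The side of 0 was kept in 186 of 186 values. The array-level fits and the other filters give the same averages by design, so that the side could not turn under them. Counts of all probes called moved under a few alternatives. Normexp with loess called 157 in the liver, 115 in the spleen, 34 in the small intestine, and 25, 31 and 70 for the differences between small intestine and spleen, small intestine and liver, and spleen and liver. None was a member; the nearest was *Hspa1a* in the spleen at -0.32 with an adjusted p of 0.0501, against 0.498 to 1 under its other alternatives. The fit over 8 arrays called 1 probe, not a member, in the small intestine and 1 between small intestine and liver, with dye as a replicate block and with no replicate block alike.

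Leaving out a liver pool does not change the averages of the small intestine and the spleen, so that their side could not turn under it. With these values counted as kept, leaving out array 1 or 2 of every pair, or a liver pool, kept the direction of 90 values of the LO effect and turned 18. The ranges for these were, in the liver, -0.049 to 0.16 for *Dnaja1*, -0.060 to 0.19 for *Hsp90ab1*, -1.13 to 1.64 for *Hspa1a*, -0.016 to 0.31 for *Hspa5*, -0.22 to 0.13 for *Hspb1* and -0.085 to 0.019 for *Hspd1*. In the small intestine they were -0.11 to 0.045 for *Hsp90ab1*, -0.40 to 0.12 for *Hspa1a*, -0.15 to 0.10 for *Hspa5*, -0.13 to 0.23 for *Hspa8* and -0.081 to 0.0021 for *Hspb1*. In the spleen they were -0.13 to 0.038 for *Dnaja1*, -0.11 to 0.015 for *Hsp90aa1*, -0.092 to 0.14 for *Hspa5*, -0.10 to 0.19 for *Hspa8*, -0.079 to 0.16 for *Hspb1* and -0.19 to 0.38 for *Hsph1*.

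The fold rule passed 309, 240, 352 and 543 features in the small intestine, spleen and liver pools 1 and 2. With the software's P below 0.01 it passed 9, 7, 9 and 17, and with a symmetric fold 205 and 147 in the small intestine and spleen. On 1 array alone it passed 8157 to 9403, 7479 to 8444, 12028 to 12417 and 12634 to 13537.

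Tissue levels called 21496 probes between liver and spleen, 19827 between liver and small intestine and 15978 between small intestine and spleen. Averages of array pairs called 9614, 6244 and 3121, and control pools alone 10099, 6841 and 3642, with fewer values in either fit. The share of calls that were higher was 45.5% between liver and spleen and 47.9% between liver and small intestine, and with no scaling it was 29.2% and 31.1%. For the small intestine over the spleen it was 43.6%, and 57% over array pairs. The median of all probes between liver and spleen was -0.10, and 0.19 under 75th percentile scaling and -0.68 with no scaling. Under 75th percentile scaling the brightest probes turned to 0.028 for *Hspa8*, 0.19 for *Hsp90aa1*, 0.12 for *Hspb1* and 0.80 for *Hspd1* between liver and spleen, to 0.094 for *Hspa8* between liver and small intestine, and to 0.41 for *Hspa5* and 0.42 for *Hsp90aa1* between small intestine and spleen. With no scaling *Hspb1* turned to -0.065 between liver and small intestine, and *Hspa5* and *Hsp90aa1* to 0.17 and 0.19 between small intestine and spleen. With control pools only *Hsph1* turned to 0.12 between small intestine and spleen. Leaving out an array or pool gave -0.17 to 0.064 for *Hsp90aa1* and -0.17 to 0.088 for *Hsph1* between small intestine and spleen. The cause of these changes was not tested.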
